A study of Mus musculus with 8 samples.

Results

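The genes described here are 49 enzymes, transporters and regulators through which liver cells make, store, break down and sense glucose, including the pentose phosphate pathway and neighbouring steps that yield NADPH. They were taken as a fixed list of mouse symbols and matched to the array through the RefSeq accession of each probe. All 49 were measured, out of 24921 genes or transcripts tested, of which 15070 had a symbol. By role they comprised 7 genes of gluconeogenesis, 8 of glycogen, 3 of insulin and glucose sensing, 20 of glycolysis, 1 of fructose entry, 4 whose enzymes yield NADPH, 4 other genes of the pentose phosphate pathway and 2 pyruvate dehydrogenase kinases.

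Liver RNA came from 8 female B6C3F1 mice, a hybrid strain much used in carcinogenicity tests. The 4 vehicle animals, replicates 2, 3, 4 and 6, were gavaged with corn oil, and the 4 furan animals, replicates 41 to 44, with furan in corn oil at a dose of 8 mg per kg. Furan, a volatile compound that forms in heated food, damages rodent liver and causes liver tumours there. The mice were bought at 5 to 6 weeks of age, kept for at least 7 days before the study and dosed for 21 days with free access to feed, and the livers were frozen 4 hours after the last dose. The labels name no modified allele and do not give the feeding state at collection. The comparison asks which transcripts differed after 3 weeks of exposure.

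The liver releases glucose into blood by breaking down glycogen and by gluconeogenesis, in which phosphoenolpyruvate carboxykinase, fructose bisphosphatase and glucose-6-phosphatase bypass the irreversible steps of glycolysis. Insulin restrains gluconeogenesis and promotes glycogen storage, whereas glucagon does the opposite. Glucose-6-phosphate can also enter the oxidative branch of the pentose phosphate pathway, where glucose-6-phosphate dehydrogenase and 6-phosphogluconate dehydrogenase reduce NADP to NADPH, the cofactor with which cells regenerate reduced glutathione and build lipids.

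The promoters of the member that passed the test and of the member with the largest change are shown first. Each is the 250 bases before the annotated start, 5′ to 3′ on the strand of the gene, from RefSeq for GRCm38.p6. The G6pdx window lies at chrX:74428881-74429130 on the minus strand, and its capitals mark a match, read on the opposite strand, to the antioxidant response element core TGACNNNGC, which the oxidative stress regulator NRF2 is known to bind. The Ppp1r3c window lies at chr19:36736605-36736854 on the minus strand, and its capitals mark the E-box CACGTG.
G6pdx: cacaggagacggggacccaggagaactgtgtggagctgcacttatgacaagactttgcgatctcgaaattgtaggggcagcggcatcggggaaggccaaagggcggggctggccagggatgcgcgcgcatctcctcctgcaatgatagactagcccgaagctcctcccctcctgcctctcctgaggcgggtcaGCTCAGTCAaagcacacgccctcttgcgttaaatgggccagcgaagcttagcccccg
Ppp1r3c: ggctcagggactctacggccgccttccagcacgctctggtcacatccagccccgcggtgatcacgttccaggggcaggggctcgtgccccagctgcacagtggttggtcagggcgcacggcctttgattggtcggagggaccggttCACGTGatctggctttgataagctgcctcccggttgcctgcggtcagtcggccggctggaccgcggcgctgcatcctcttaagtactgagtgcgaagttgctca
The motifs, 3 in number, were searched for on both strands without regard to overlap between them, in 32851 such windows of all genes and in 70 windows of the 47 members that had one. TGACNNNGC was found in 10.2% of all windows and in 7 of the 70 member windows, from 7 members, namely Aldoa, Fbp1, G6pc, G6pdx, Hk1, Irs2 and Pgm2. CACGTG was found in 6.02% of all windows and in 8 of the 70 member windows, from 8 members, Irs2, Khk, Ldha, Pcx, Pdk2, Pfkfb3, Pfkm and Ppp1r3c. The cyclic AMP response element TGACGTCA was found in 1.55% of all windows and, among the members, in 1 of the windows of Ldha. The members with a match to TGACNNNGC held genes on either side of zero, from G6pdx at a log2 change of 0.74 to Irs2 at -0.30.

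All 8 arrays were on 1 slide. The share of probe spots well above background was 55.1% to 69.4% on the other arrays and 86.2% on vehicle replicate 2. That array was the lowest of the 4 vehicle arrays for 30 of the 49 genes and the highest for 4, among them Pck2, Pgm2 and Pfkp. Values without it are therefore given for several genes. Without it Pgd differed by 0.44, Gbe1 by 0.50, Pgam1 by 0.37, Eno1 by 0.21 and Pgk1 by 0.14, against 0.57, 0.60, 0.45, 0.29 and 0.29 with it, and the values of G6pdx, Pck1, Pcx, Gckr and Pfkm without it stand beside them below. Of the 49 genes, 48 were well above background on all 8 arrays. Pck2 was so on 4 arrays, 2 in each group, and its levels are close to background. Each level below is a log2 signal minus the log2 75th percentile of the same array, a change is the furan mean minus the vehicle mean, and levels are not compared between genes because probes differ in brightness. A gene passed at a limma adjusted p under 0.05 over all 24921 features.

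Of the 49 genes, 1 rose, G6pdx, and 0 fell. That is 2.04% of the genes, against a background of 4.18% of all features past the threshold and 2.87% past it with furan higher, so the share called was not above the background. Changes were positive for 26 genes, or 53.1%, beside 39.8% of all features, and negative for 23 genes. They ranged from -0.53 for Pck2 to 1.04 for Ppp1r3c. Without vehicle replicate 2 the change of Pck2 was -0.15. The median change was 0.02, beside -0.09 over all features, and the median size was 0.21, beside 0.24. An unadjusted p under 0.05 was reached by 12 genes, or 24.5%, and by 23.8% of all features. Among them 3, G6pdx, Gbe1 and Ppp1r3c, differed by at least 1.5-fold, or 6.12%, beside 16.7% of all features.

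**Figure D1:**
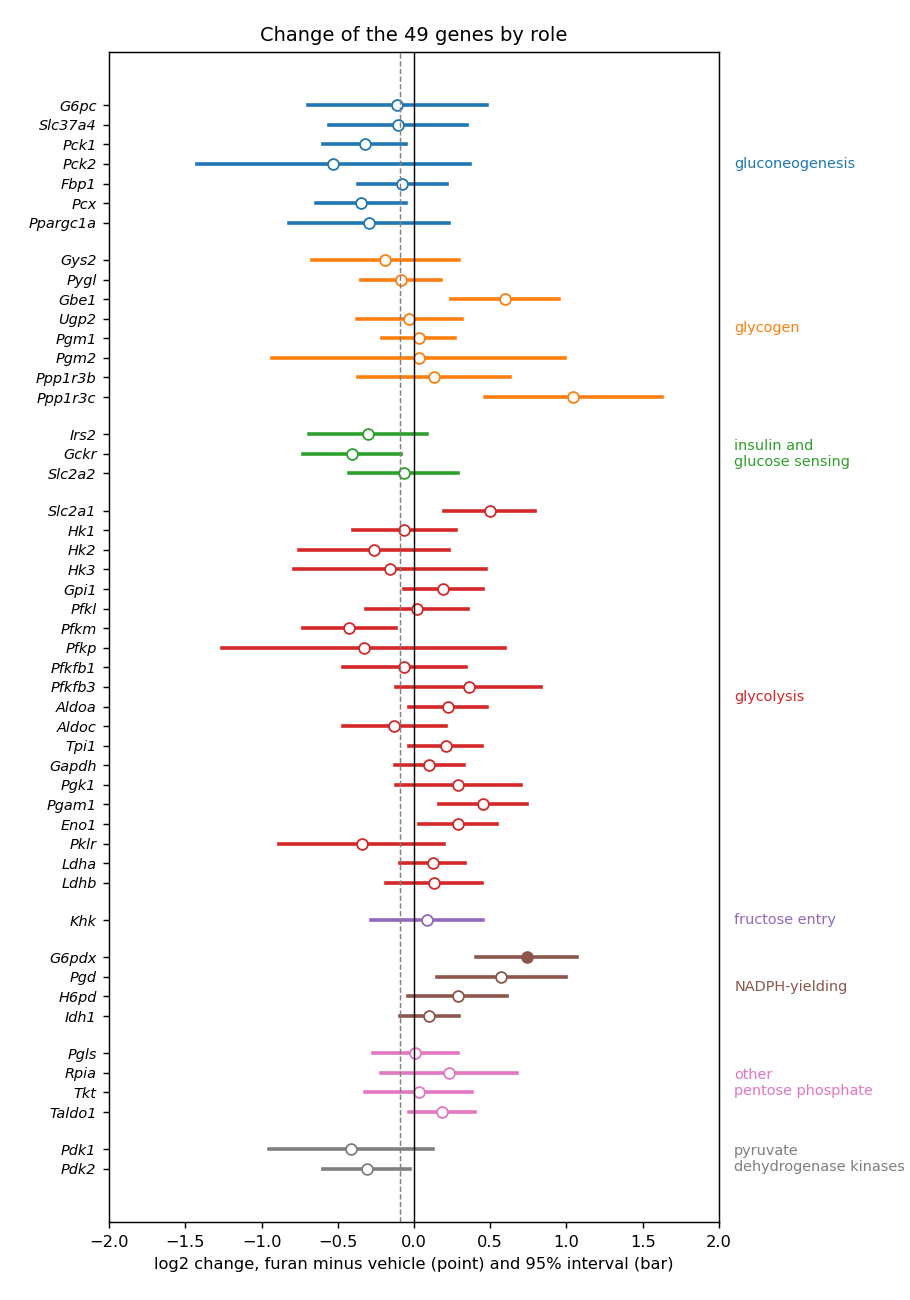
Log2 change of each of the 49 genes, furan minus vehicle (horizontal axis), with its 95% interval from limma as a bar, grouped by role and with 4 arrays in each group except 3 furan arrays for Pfkl. The filled point is G6pdx, the only gene past an adjusted p of 0.05 in this fit. The solid line is 0 and the dashed line the median of all 24921 features at -0.09. With a median shift, which sets vehicle replicate 2 lower against the other arrays, 22 of the 23 negative genes turn positive.

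All 4 furan arrays lay above all 4 vehicle arrays for 6 genes, or 12.2%, namely G6pdx, Gbe1, Ppp1r3c, Slc2a1, Pgam1 and Eno1, beside 10.8% of all features. They lay below for 2 genes, or 4.08%, Pck1 and Pcx, beside 7.36% of all features. Both shares are near the background. The following sections take the steps in turn, beginning with those that yield NADPH.

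G6pdx encodes the X-linked glucose-6-phosphate dehydrogenase, which commits glucose-6-phosphate to the pentose phosphate pathway and yields NADPH. Its levels were 1.20, 1.22, 1.65 and 1.04 on vehicle arrays 2, 3, 4 and 6, and 2.10, 1.84, 2.07 and 2.07 on furan arrays 41, 42, 43 and 44. The groups did not overlap, the lowest furan array being above the highest vehicle array. The mean went from 1.28 ± 0.26 (SD, n = 4) to 2.02 ± 0.12 (SD, n = 4), a rise of 0.74 ± 0.14 (SE) on the log2 scale or 1.67-fold (limma, adjusted p = 0.0340, 95% interval 0.41 to 1.07). Within the 2 rows of the slide, each with 2 arrays of either group, the difference was 0.95 and 0.53, and it was positive in 4 of the 4 slide columns. Whether the probe separates G6pdx from G6pd2, its close autosomal copy, is not stated in the files.

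The G6pdx change was positive in every alternative run, whereas its call did not hold in all of them. The change was 1.23 with a median shift, which raises every gene, and 0.63 to 0.86 in the others. It was 0.63 with normexp background correction (adjusted p = 0.0387) and 0.68 in the authors' value table (adjusted p = 0.0309). The adjusted p was 0.0539 after quantile normalization, 0.384 with a median shift, 0.0980 without the filter on dim probes and 0.134 with the slide column as a block. Without vehicle replicate 4, which had the highest vehicle level, it was 0.0261, and without each of the other 7 arrays in turn it was 0.0563 to 0.101, with changes of 0.66 to 0.80. Without vehicle replicate 2 the change was 0.71 (adjusted p = 0.0563).

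Pgd, which encodes 6-phosphogluconate dehydrogenase, the next NADPH-yielding step, did not pass. It measured 2.16, 2.77, 2.56 and 2.70 on the vehicle arrays and 3.23, 2.73, 3.38 and 3.14 on the furan arrays. Furan array 42 lay within the vehicle range and the other 3 lay above it. The difference was 0.57 ± 0.18 (SE), with an adjusted p of 0.115 in limma and 0.0494 in the authors' value table.

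H6pd encodes a hexose-6-phosphate dehydrogenase of the endoplasmic reticulum, which yields NADPH there. It measured 5.65, 5.71, 5.79 and 5.59 on the vehicle arrays and 6.25, 6.06, 5.96 and 5.61 on the furan arrays. The difference of 0.29 ± 0.14 (SE) did not pass (limma, adjusted p = 0.257), and furan array 44 fell within the vehicle range. Idh1, the cytosolic isocitrate dehydrogenase that also yields NADPH, was 2.30 ± 0.06 (SD, n = 4) on vehicle and 2.40 ± 0.09 (SD, n = 4) on furan arrays, a difference of 0.10 (adjusted p = 0.448) that was below 0 by less than 0.01 after quantile normalization or normexp.

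The 4 genes that yield no NADPH in the pathway had differences of 0.23 or less, none past the threshold. Taldo1, encoding the sugar-exchanging transaldolase, was 6.45 ± 0.11 (SD, n = 4) on vehicle and 6.63 ± 0.10 (SD, n = 4) on furan arrays, and 2 furan arrays lay above the vehicle range. Its difference was 0.18 ± 0.09 (SE, limma, adjusted p = 0.274). Tkt, the transketolase, differed by 0.03 ± 0.15 (SE, adjusted p = 0.909), with an interval of -0.32 to 0.38. Pgls, the lactonase between the oxidative steps, differed by 0.01 (adjusted p = 0.966), and Rpia, which isomerises ribose phosphate, by 0.23 (adjusted p = 0.460). Tkt and Pgls were below 0 after quantile normalization, with normexp and in the authors' value table.

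**Figure D2:**
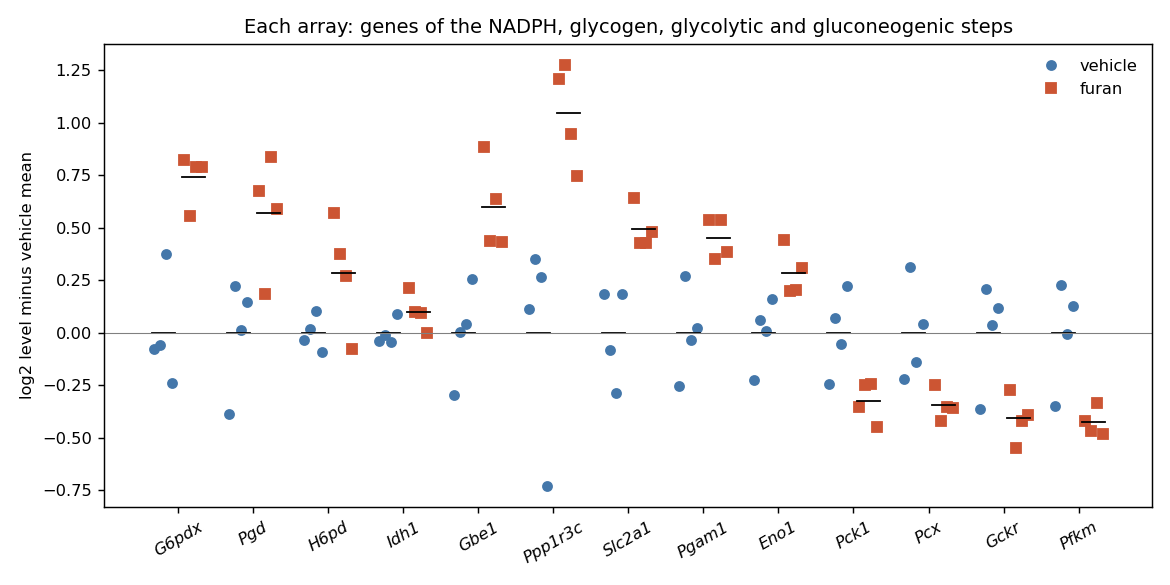
Log2 level on each array minus the vehicle mean of the gene (vertical axis) for 13 genes, with circles for the 4 vehicle arrays, squares for the 4 furan arrays and bars at the group means. G6pdx lies apart between the groups, Pgd has furan array 42 within the vehicle range, and Pck1 and Pcx have all furan arrays below all vehicle arrays.

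Glycogen genes did not move as one. In limma 0 of the 8 passed and 2 had an unadjusted p under 0.05. Changes were positive for 5, or 62.5%, beside 39.8% of all features, and negative for 3. The median change was 0.03, beside -0.09 over all features. With a median shift all 8 were positive, and 3 were in the values deposited by the authors. The largest differences were in Ppp1r3c and Gbe1. Ppp1r3c encodes PTG, a scaffold that brings protein phosphatase 1 to glycogen and so favours its synthesis.

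Ppp1r3c measured 2.68, 2.92, 2.83 and 1.84 on the vehicle arrays and 3.78, 3.85, 3.52 and 3.32 on the furan arrays. The groups did not overlap, and vehicle replicate 6 was the lowest array. The difference of 1.04 ± 0.25 (SE), or 2.06-fold, did not pass (limma, adjusted p = 0.0594, 95% interval 0.46 to 1.62). It passed with trend and robust estimation (adjusted p = 0.0206), in the authors' value table (0.0491), with the slide row as a block (0.0388) and when only genes above background on all 8 arrays were tested (0.0357). Without vehicle replicate 6 the difference was 0.80 (adjusted p = 0.0626).

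Gbe1, the branching enzyme that adds side chains to glycogen, measured 4.37, 4.66, 4.70 and 4.92 on the vehicle arrays and 5.55, 5.10, 5.30 and 5.09 on the furan arrays, again without overlap. Its difference of 0.60 ± 0.15 (SE), or 1.51-fold, did not pass (limma, adjusted p = 0.0680). The Gbe1 difference passed with normexp (0.0297), in the authors' value table (0.0303), with trend and robust estimation and with the filter on all 8 arrays. The glycogen synthase of liver, Gys2, did not share this pattern. It measured 6.40, 6.92, 6.82 and 7.37 on the vehicle arrays and 6.98, 6.60, 6.72 and 6.46 on the furan arrays, and its difference of -0.19 ± 0.21 (SE) lay within the spread (adjusted p = 0.571).

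Pygl, the liver phosphorylase that releases glucose units from glycogen, was 7.32 ± 0.11 (SD, n = 4) on vehicle and 7.23 ± 0.17 (SD, n = 4) on furan arrays (difference -0.08, limma, adjusted p = 0.639). Ppp1r3b, the liver scaffold for the same phosphatase as Ppp1r3c, differed by 0.13 ± 0.22 (SE, adjusted p = 0.705), and its furan arrays spanned 5.35 to 6.26. Ugp2, which makes UDP-glucose, and Pgm1, which interconverts glucose phosphates, differed by -0.03 and 0.03. Pgm2, a phosphoglucomutase of pentose phosphates, had the widest interval of the glycogen genes, -0.93 to 0.99, and its vehicle arrays spanned -3.65 to -1.91.

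Of the 7 gluconeogenic genes 0 passed the test. All 7 changes were negative, as were 15000 of all 24921 features, with a median of -0.29 beside -0.09 over all features. The changes of G6pc at -0.11, Slc37a4 at -0.11 and Fbp1 at -0.08 were close to that of a typical feature. Those of Pck1, Pcx, Ppargc1a and Pck2 were lower, at -0.32, -0.35, -0.29 and -0.53, with Pck2 close to background. Of the 7, 6 were negative after quantile normalization, with normexp and in the authors' value table, and 1 was with a median shift. Pck1, the cytosolic phosphoenolpyruvate carboxykinase, measured 8.15, 8.46, 8.33 and 8.61 on the vehicle arrays and 8.04, 8.14, 8.15 and 7.94 on the furan arrays. Every furan array lay below every vehicle array, by a narrow margin against vehicle replicate 2. The difference was -0.32 ± 0.12 (SE), a level 1.25-fold lower (limma, adjusted p = 0.156), and it was negative in 4 of the 4 slide columns.

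Pcx, the pyruvate carboxylase that feeds the same route, measured 7.20, 7.73, 7.28 and 7.46 on the vehicle arrays and 7.17, 7.00, 7.06 and 7.06 on the furan arrays. Here too every furan array was below every vehicle array, with a difference of -0.35 ± 0.13 (SE, limma, adjusted p = 0.160). In the authors' value table both fell, Pck1 by 0.46 (adjusted p = 0.0196) and Pcx by 0.48 (adjusted p = 0.0132). Without vehicle replicate 2 the differences were -0.40 for Pck1 (0.0791) and -0.42 for Pcx (0.104).

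The final step was a different case. G6pc, the catalytic subunit of glucose-6-phosphatase, measured 6.11, 6.94, 7.24 and 6.49 on the vehicle arrays and 6.97, 6.46, 6.41 and 6.49 on the furan arrays. The vehicle arrays spanned the whole furan range, and the difference was -0.11 ± 0.25 (SE, limma, adjusted p = 0.795). Its sign differed between the slide rows, 0.15 in the first and -0.37 in the second. Slc37a4, the transporter that supplies this enzyme with glucose-6-phosphate, differed by -0.11 (adjusted p = 0.739).

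Fbp1, fructose bisphosphatase, was 9.54 ± 0.23 (SD, n = 4) on vehicle and 9.46 ± 0.08 (SD, n = 4) on furan arrays, a difference of -0.08 with an interval of -0.37 to 0.21 (limma, adjusted p = 0.699). Ppargc1a, the coactivator that raises transcription of gluconeogenic genes, differed by -0.29 ± 0.23 (SE, adjusted p = 0.422). Pck2, the mitochondrial carboxykinase, differed by -0.53 with an interval of -1.42 to 0.36. It measured -3.05 on vehicle replicate 2 and -4.80 to -4.38 on the other vehicle arrays, and differed by -0.15 without replicate 2. Its sign was positive after quantile normalization, with normexp and in the authors' value table.

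The 3 genes of insulin and glucose sensing were all negative, as were 15000 of all 24921 features. Their median was -0.30, beside -0.09 over all features, and all 3 were positive with a median shift. Gckr, a regulatory protein of hepatocyte glucose metabolism, measured 6.95, 7.52, 7.35 and 7.43 on the vehicle arrays and 7.04, 6.77, 6.89 and 6.92 on the furan arrays. Of the 4 furan arrays, 3 lay below the vehicle range, and furan array 41 lay just above vehicle replicate 2. The difference of -0.41 ± 0.14 (SE) did not pass (limma, adjusted p = 0.134); it passed without vehicle replicate 2, at -0.53 (0.0384), with normexp (0.0277) and in the authors' value table (0.0107).

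Irs2 encodes an adaptor through which the liver insulin receptor signals. It measured 4.46, 4.57, 4.87 and 4.60 on the vehicle arrays and 4.59, 4.58, 4.14 and 4.00 on the furan arrays. Furan arrays 43 and 44 were below the vehicle range and 41 and 42 were within it, with a difference of -0.30 ± 0.17 (SE, limma, adjusted p = 0.297). Slc2a2, the GLUT2 transporter of hepatocytes, differed by -0.07 (adjusted p = 0.787), with an interval of -0.43 to 0.29.

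Among the 20 glycolytic genes 0 passed in limma, 4 being under 0.05 before adjustment. Of the changes, 12 were positive, or 60%, beside 39.8% of all features, and 8 were negative. The median was 0.11, against 0.063 without vehicle replicate 2 and 0.033 in the authors' value table. With a median shift all 20 were positive, and 10 were in the values deposited by the authors. The positive ones included enzymes of the later steps. Pgam1, the phosphoglycerate mutase, measured 5.76, 6.28, 5.98 and 6.03 on the vehicle arrays and 6.55, 6.37, 6.55 and 6.40 on the furan arrays, without overlap. Its difference was 0.45 ± 0.12 (SE, limma, adjusted p = 0.0808), and it passed with normexp (0.0297), with trend and robust estimation (0.0325) and in the authors' value table (0.0338).

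Slc2a1, the GLUT1 transporter of many tissues and of dividing cells, measured 0.67, 0.40, 0.20 and 0.67 on the vehicle arrays and 1.13, 0.91, 0.91 and 0.97 on the furan arrays. All furan arrays were above all vehicle arrays, with a difference of 0.50 ± 0.13 (SE, limma, adjusted p = 0.0714). In this bulk tissue, more of a cell type and more RNA per cell cannot be told apart. Eno1, the ubiquitous enolase, measured 6.91, 7.19, 7.14 and 7.29 on the vehicle arrays and 7.58, 7.33, 7.34 and 7.44 on the furan arrays, also without overlap, at 0.29 ± 0.11 (SE, adjusted p = 0.171).

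The other enzymes of the middle and late steps had groups that overlapped. Gapdh was 8.98 ± 0.15 (SD, n = 4) on vehicle and 9.08 ± 0.06 (SD, n = 4) on furan arrays, a difference of 0.10 (limma, adjusted p = 0.524), and its 7 probes ranged from 0.08 to 0.22. Ldha, the lactate dehydrogenase subunit that predominates in liver, was 8.93 ± 0.13 (SD, n = 4) and 9.05 ± 0.05 (SD, n = 4), a difference of 0.12 (adjusted p = 0.411). In the authors' value table both differences were slightly below 0. Gpi1, Aldoa, Tpi1, Pgk1 and Ldhb, with roles from the isomerase to lactate dehydrogenase, had differences of 0.13 to 0.29 and adjusted p-values of 0.260 to 0.547.

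Of the 8 negative changes, 7 were in Hk1, Hk2, Hk3, Pfkm, Pfkp, Pfkfb1 and Pklr, and 1 was in the aldolase gene Aldoc. The related genes Pfkl and Pfkfb3 had positive changes. With a median shift these 8 were positive, and Pfkm, Pklr and Aldoc turned in no other alternative. Hk2 was also positive after quantile normalization, with normexp and in the authors' value table. Leaving out vehicle replicate 2 turned Pfkp, and leaving out vehicle replicate 4 turned Hk1 and Hk3. Pfkfb1 turned without vehicle replicate 6 or furan replicate 42. Pfkm, the muscle-type subunit of phosphofructokinase, measured 2.31, 2.88, 2.65 and 2.78 on the vehicle arrays and 2.23, 2.19, 2.32 and 2.17 on the furan arrays. On the furan side 3 arrays were below the vehicle range and furan array 43 was level with vehicle replicate 2. Its difference was -0.42 ± 0.13 (SE, limma, adjusted p = 0.107), and it passed without vehicle replicate 2 at -0.54 (0.0330), after quantile normalization (0.0293), with normexp (0.0157) and in the authors' value table (0.0232). The liver-type subunit Pfkl, by contrast, differed by 0.02 over 3 furan arrays, since the spot of furan array 44 was marked as an outlier and left out.

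Pklr, the pyruvate kinase of liver and red cells, measured 1.24, 1.82, 1.57 and 1.97 on the vehicle arrays and 1.74, 0.80, 1.45 and 1.22 on the furan arrays. The groups overlapped and the difference was -0.34 ± 0.23 (SE, limma, adjusted p = 0.372). Hk1, Hk2 and Hk3, the hexokinases found mainly outside hepatocytes, differed by -0.06, -0.26 and -0.16, none past the threshold. A second, dimmer probe of Hk1 differed by -0.39 (adjusted p = 0.0430 when each probe was tested on its own), so the 2 probes of this gene did not give the same call. Pfkfb3, which makes an activator of phosphofructokinase, differed by 0.36 on its brighter probe and -0.57 on its dimmer one, and Pfkfb1, the liver form, by -0.06. The remaining subunit gene, Pfkp, differed by -0.33 with an interval of -1.26 to 0.60, and Aldoc by -0.13.

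Khk, the ketohexokinase through which fructose enters, measured 8.08, 8.45, 8.42 and 8.69 on the vehicle arrays and 8.78, 8.30, 8.52 and 8.37 on the furan arrays. The groups overlapped, and the difference was 0.08 ± 0.16 (SE, limma, adjusted p = 0.749). Pdk1 and Pdk2 encode kinases that switch off pyruvate dehydrogenase and so keep pyruvate from oxidation. Pdk2 measured 3.73, 4.07, 3.96 and 4.14 on the vehicle arrays and 3.84, 3.74, 3.60 and 3.48 on the furan arrays, a difference of -0.31 ± 0.12 (SE, adjusted p = 0.183) that passed only in the authors' value table (0.0444) among the alternatives run. Pdk1 measured 1.71, 2.13, 1.95 and 2.48 on the vehicle arrays and 2.19, 1.28, 1.47 and 1.68 on the furan arrays, with a difference of -0.41 ± 0.23 (SE, adjusted p = 0.305). For Pdk1, 3 furan arrays were below the vehicle range and furan array 41 was within it.

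The steps were then compared by the median over their genes on each array, after subtracting the vehicle mean of each gene. For the 4 NADPH-yielding genes the furan arrays lay at 0.62, 0.28, 0.53 and 0.29 and the vehicle arrays between -0.06 and 0.06. Other NADPH-yielding enzymes that are not among the 49 differed in either direction, none past the threshold. The malic enzymes Me1 and Me3, the mitochondrial isocitrate dehydrogenase Idh2 and the folate enzyme Aldh1l1 differed by -0.16, -0.21, -0.19 and -0.10. The folate enzyme Mthfd1 differed by 0.23 (limma, adjusted p = 0.176), with all furan arrays above all vehicle arrays. For gluconeogenesis the furan arrays lay at -0.25, -0.25, -0.24 and -0.36, and the vehicle arrays between -0.24, on replicate 2, and 0.16. For gluconeogenesis the highest furan array was thus level with vehicle replicate 2. For glycolysis the furan arrays, at 0.05 to 0.19, lay within or just above the vehicle range of -0.18 to 0.13, and for glycogen they lay within it. These medians describe lists chosen with earlier results known and carry no test.

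**Figure D3:**
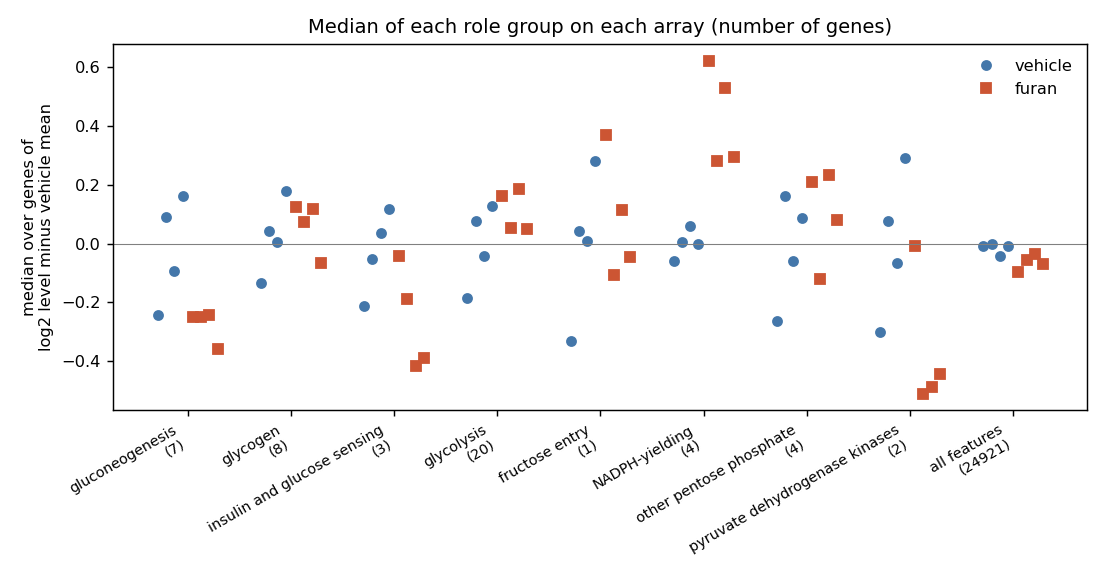
Median over the genes of each role, on each array, of the log2 level minus the vehicle mean of the gene (vertical axis), with the number of genes in brackets and all features at the right. Circles are vehicle and squares furan arrays; the NADPH-yielding genes lie at 0.28 to 0.62 on furan arrays, gluconeogenesis at -0.36 to -0.24, and the median of all features stays between -0.096 and -0.0011 on every array.

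The number of these genes past the threshold differed between the alternatives. With normexp followed by quantile normalization it was 7, or 14.3%, beside 5.28% of all features, and with quantile normalization alone 2, or 4.08%, beside 3.61%; the 7 were G6pdx, Gbe1 and Pgam1 on the higher side and Gckr, Pck1, Pcx and Pfkm on the lower. In the authors' value table it was 11, or 22.4%, beside 6.69%, with G6pdx, Gbe1, Pgam1, Pgd, Ppp1r3c and Slc2a1 higher and Gckr, Pck1, Pcx, Pdk2 and Pfkm lower. With trend and robust estimation it was 5, or 10.2%, beside 8.03%, all of them higher. With the slide column as a block it was 0, as it was for all features in limma, where 9 of the 49 had an unadjusted p under 0.05. A median shift moved the median of all features from -0.09 to 0.39. The log2 median it subtracts was 7.03 on vehicle replicate 2 and 5.02 to 5.59 on the other arrays. The log2 75th percentiles were 8.40 to 8.90, with vehicle replicate 2 at 8.85. The median shift thus sets that array lower against the others, and with it the vehicle mean. Relative to the median of all features, the change of G6pdx was 0.83 and that of Pck1 -0.23 under either shift.

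**Figure D4:**
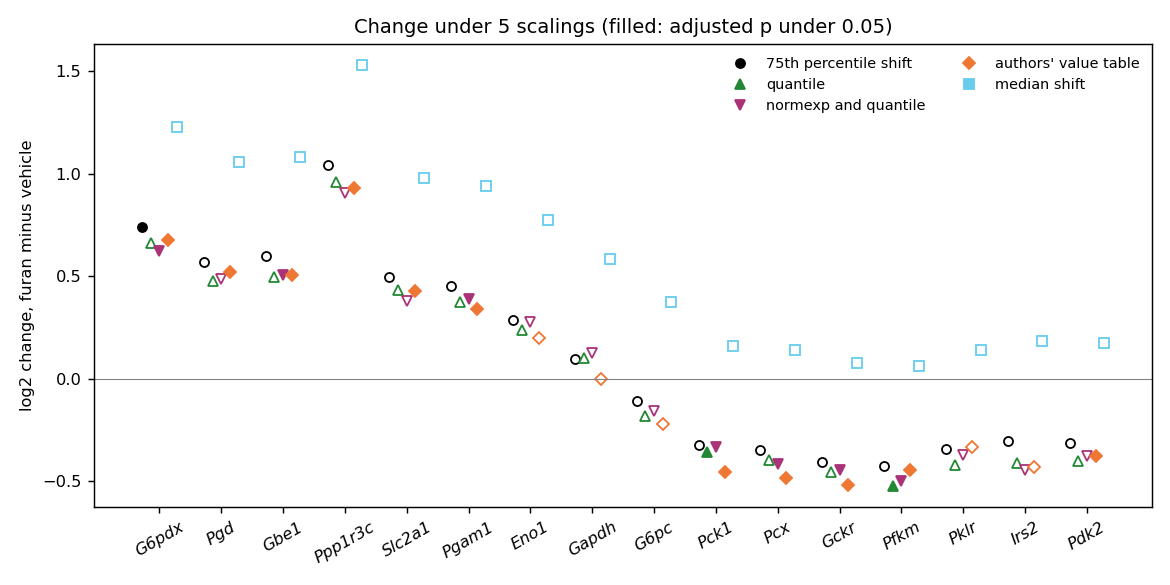
Log2 change, furan minus vehicle (vertical axis), of 16 genes under 5 scalings, with a filled symbol where the adjusted p was under 0.05. G6pdx is 0.63 to 0.74 in 4 scalings and 1.23 with a median shift, which raises every gene; Pck1, Pcx, Gckr and Pfkm are negative in 4 scalings and positive with the median shift.

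Beyond the 49, 87 other genes of the same pathways were listed and 82 measured, of which 1 rose and 1 fell, or 2.44% beside 4.18% of all features. Rpe, the epimerase of the non-oxidative pentose phosphate branch, measured -1.64, -1.44, -1.46 and -1.50 on the vehicle arrays and -0.85, -0.62, -1.08 and -1.07 on the furan arrays. The groups did not overlap, and the rise was 0.61 ± 0.12 (SE, limma, adjusted p = 0.0392); without any 1 array the adjusted p was 0.0622 to 0.112, and it was 0.170 after quantile normalization and 0.0824 with normexp. Creb1, a transcription factor that responds to cyclic AMP, fell by 0.80 on the log2 scale (adjusted p = 0.00929), yet only by 0.11 in the authors' value table (0.759) and by 0.14 as the mean of its 2 probes (0.434).

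The other genes named here were among those with the smallest adjusted p-values in their direction and did not pass. Igfbp1, a secreted binding protein repressed by insulin, measured 4.75, 4.01, 4.30 and 4.81 on the vehicle arrays and 7.02, 5.40, 6.49 and 4.88 on the furan arrays. Its furan arrays were spread widely, with a difference of 1.49 ± 0.46 (SE, limma, adjusted p = 0.109). Positive differences were also seen in the insulin receptor adaptor Irs1 at 0.60, the hepatocyte factor Hnf4a at 0.31 and the dehydrogenase subunit Dld at 0.31.

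Slc2a5, the GLUT5 fructose transporter, measured 2.79, 3.18, 2.71 and 3.11 on the vehicle arrays and 2.43, 1.30, 2.13 and 1.85 on the furan arrays. All furan arrays were lower, with a difference of -1.02 ± 0.24 (SE, limma, adjusted p = 0.0581). The coactivator gene Ppargc1b at -0.69, the glucagon receptor gene Gcgr at -0.32, the phosphorylase kinase subunit Phkg1 at -0.72 and the widely expressed glycogen synthase Gys1 at -0.38 were the others, with adjusted p-values of 0.0658 to 0.144.

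The tissue label was checked against markers. Hepatocyte markers were high on every array, their summed linear signal, as a multiple of the 75th percentile of the array, being 5050 to 6879 on vehicle and 5285 to 5945 on furan arrays. Of 13 marker lists for hepatocytes, their zones and other cells, 0 had a gene past the threshold in limma. Before adjustment 13 of the 73 measured marker genes were under 0.05, beside 23.8% of all features. All 7 pericentral hepatocyte markers were negative, as were 15000 of all 24921 features, with a median of -0.29 beside -0.09 over all features. Their sums were 1429 to 1945 on vehicle and 1397 to 1690 on furan arrays. The sums of the 7 periportal markers were 881 to 1116 and 963 to 1027. Of the periportal markers all furan arrays were above all vehicle arrays for Hsd17b13 at 0.59, Hal at 0.34 and Cyp2f2 at 0.19, and below for Pck1. Over all features the furan arrays were all above for 10.8% and all below for 7.36%. The groups overlapped for Sds at -0.32, Sdsl at -0.16 and Gls2 at -0.04. The macrophage sum was 305 on vehicle replicate 4 and 124 to 184 on the other 7 arrays. The 3 measured exocrine pancreas markers differed by -1.06, -0.48 and -0.48, with sums of 10.4 to 14.3 on vehicle and 6.93 to 10.6 on furan arrays. The endothelial markers Stab2 and Pecam1 differed by -0.48 and -0.39, and the others of that list by -0.20 to 0.0011. The sums of the 7 markers were 86.7 to 104 on vehicle and 71.1 to 87.4 on furan arrays. The stellate cell markers Col1a1, Col3a1 and Pdgfrb differed by 0.51, 0.37 and 0.32. Dcn, Lrat, Reln and Des of the same list differed by 0.08, -0.03, -0.28 and -0.50. The median of these 7 markers was 0.08, and their sums were 87.5 to 122 on vehicle and 97.6 to 112 on furan arrays. The part of these values in the differences above was not tested.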

How the data were processed

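Total RNA from livers of 4 vehicle and 4 furan mice was hybridised to the 8 arrays of 1 slide, Agilent design 028005. Per the file headers, the deposited scanner files hold the intensity of each spot from Feature Extraction 11.0.1.1, background-subtracted and detrended. The authors also deposited a value table in log2 units, by a method not given in the sources used. Its columns correlate with the log2 median intensity of their array at 0.998 for vehicle replicate 2 and 1.00 for the others, over probes that are not independent replicates, and their medians were 6.53 to 6.74. Its scale is log2 and its direction follows the signal, while its centring stays unknown.

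After 3671 control spots and 128 to 315 outlier spots on each array were left out, the log2 75th percentile of each array was subtracted from its log2 processed intensities and replicate spots were averaged. Probes were kept if well above background on at least 4 of 8 arrays, and the brightest kept probe stood for its gene. Accessions were named through RefSeq for GRCm38.p6, which named 27235 of 28685 RefSeq probes. The 2-sided test was that of limma 3.58.1 (lmFit, eBayes; R 4.3.3), adjusted by Benjamini-Hochberg over 24921 features. Which animals share a block of the randomized design is not said in the labels, so the slide row and column were tried as blocks. Normexp, with an offset of 50, was run on median spot intensities, the mean not being in the files, and followed by quantile normalization. The genes, lists and rules were chosen with earlier results of these data known. The genes named were those past the threshold, the 3 smallest adjusted p-values of each role, 19 set by name and, of the other pathway genes, the 6 smallest in each direction, of which 1 is not reported here. Ppp1r3e, Ppp1r3f, Epm2a, Tktl1 and Nnt had no kept probe. With 4 arrays in a group, precision is limited.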

Additional observations from a re-analysis of the deposited data

Results flagged for a closer look

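In 4 of 97 groups of 4 arrays tested, 1 array stood apart from the other 3 by more than the critical share of the range of the group (Dixon), and chance alone marks about 1 group in 20. The share was 0.855 for G6pc on furan arrays, where replicate 41 was highest at 6.97 and the others lay at 6.41 to 6.49. It was 0.926 for Hk2 on furan arrays, where replicate 44 was highest at -2.95. It was 0.928 for Pfkfb3 on vehicle arrays, where replicate 6 was highest at 1.35, and its difference of 0.36 is that of its brighter probe, the dimmer one being at -0.57. It was 0.887 for G6pdx on furan arrays, where replicate 42 was lowest at 1.84 and the others lay at 2.07 to 2.10. Vehicle replicate 2 stood apart in 0 of these groups. A test within the 4 values of a gene cannot tell whether a whole array is shifted. That array had 86.2% of probe spots well above background, against 55.1% to 69.4% on the others.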

How the results depend on the processing

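Over 18 alternatives, 15 of the 49 genes kept their sign in every one in which they were measured, and 11 passed in at least 1. The number of the 49 past the threshold, 1 in the main setting, was 2 after quantile normalization (Pck1 and Pfkm, lower), 0 with a median shift, 7 with normexp, 11 in the authors' value table, 0 without a filter, 4 with a filter on all 8 arrays, 5 with trend and robust estimation, 2 with the slide row as a block, 0 with the slide column as a block, and 0 to 2 without 1 array. Over all features, 1041 became 86 with a median shift, 1668 in the value table, 163 without a filter, 1733 with a filter on all 8 arrays, 2001 with trend and robust estimation, 0 with the column block (4723 at an unadjusted p under 0.05) and 195 to 928 without 1 array. The 2 calls among other pathway genes became 0, 1, 5, 1, 9 and 0 with a median shift, no filter, the filter on all 8 arrays, the mean of probes, trend and robust estimation and the column block, and 1 without any 1 array. With a median shift the role medians were 0.19 for gluconeogenesis, 0.52 for glycogen, 0.18 for sensing, 0.60 for glycolysis, 0.57 for fructose entry, 0.91 for NADPH-yielding genes, 0.59 for other pentose phosphate genes and 0.12 for the kinases Pdk1 and Pdk2, as the shift itself raises all genes. It turned 22 of the 49 changes positive and, of the other pathway genes named, those of Gcgr and Gys1: G6pc at 0.38, Slc37a4 at 0.38, Pck1 at 0.16, Fbp1 at 0.41, Pcx at 0.14, Ppargc1a at 0.19, Gys2 at 0.30, Pygl at 0.40, Ugp2 at 0.45, Irs2 at 0.18, Gckr at 0.079, Slc2a2 at 0.42, Hk1 at 0.42, Hk2 at 0.22, Hk3 at 0.33, Pfkm at 0.061, Pfkp at 0.15, Pfkfb1 at 0.42, Aldoc at 0.36, Pklr at 0.14, Pdk1 at 0.072, Pdk2 at 0.17, Gcgr at 0.17 and Gys1 at 0.11. After quantile normalization, signs turned for Pck2 at 0.34, Pgm1 at -0.025, Hk2 at 0.37, Pfkl at -0.056, Idh1 at -0.00042, Pgls at -0.078 and Tkt at -0.041. With normexp they turned for Pck2 at 0.058, Hk2 at 0.15, Pfkl at -0.065, Idh1 at -0.0085, Pgls at -0.087 and Tkt at -0.0025. In the value table they turned for Pck2 at 0.062, Pgm1 at -0.068, Ppp1r3b at -0.026, Hk2 at 0.16, Pfkl at -0.074, Gapdh at -0.00085, Ldha at -0.0081, Khk at -0.028, Pgls at -0.075 and Tkt at -0.068. With the column block the sign turned for Pfkl at -0.016 and with the mean of probes for Pfkfb3 at -0.10. Without 1 array, changes ranged from -0.30 to 0.074 for G6pc, -0.26 to 0.0072 for Slc37a4, -0.15 to 0.065 for Ugp2, -0.037 to 0.069 for Pgm1, -0.26 to 0.32 for Pgm2, -0.0017 to 0.30 for Ppp1r3b, -0.17 to 0.048 for Slc2a2, -0.14 to 0.065 for Hk1, -0.34 to 0.0029 for Hk3, -0.096 to 0.083 for Pfkl, -0.53 to 0.064 for Pfkp, -0.15 to 0.064 for Pfkfb1, -0.028 to 0.18 for Khk, -0.057 to 0.088 for Pgls and -0.078 to 0.10 for Tkt. Where no construction of the alternative shows it, the cause was not tested. The groups share no replicate numbers; the slide column, which holds 1 vehicle and 1 furan array, was the one pairing tried, as a block.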
